A study of Mus musculus with 5 samples.

Results

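The genes described here encode the invariant chains of the T cell receptor complex and its constant regions: Cd3d, Cd3e, Cd3g, Cd247, Trac, Trbc1, Trbc2, Trdc, Tcrg-C1 and Tcrg-C2. They were taken by symbol and are 10 of the 27726 genes present in all 5 single-cell RNA libraries, and each of the 10 was found. The libraries were made from lung group 2 innate lymphoid cells (ILC2s) of wild-type C57BL/6 mice, sorted as lineage-negative, ST2+, CD127+, Thy1.2+ and CD45+, with cells of 5 mice pooled per group. The study set cells of tumour-bearing mice against cells of naive mice, and cells cultured with cytokines against fresh ones.

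The naive library came from mice without a tumour and was not cultured. The ta-non-activated libraries came from mice 2 and 3 weeks after TC1 tumour cells, a mouse lung epithelial tumour line, were placed under the skin, and were sequenced fresh. The ta-activated libraries, also of weeks 2 and 3, were cultured for 7 days before sequencing. The labels name IL-33 and TSLP for that culture, and the study's methods add IL-2, each at 10 ng per mL. Each condition and week is 1 library, so naive has 1 library and the other groups have 2 each. The lineage antibodies included ones against the CD3 chains epsilon and gamma, CD4, CD8 alpha and TCR beta, and the listed antibodies name none against the gamma-delta receptor.

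Cells with 200 or more genes and under 5% mitochondrial counts were kept, which left 1601 to 6389 cells and 9394957 to 61830293 UMIs (unique molecular identifiers, each standing for 1 captured RNA molecule) per library. Median depth ran from 4396 UMIs per cell in ta-non-activated week 3 to 16090 in ta-non-activated week 2. Pairs of libraries shared 1 to 11 cell barcodes, at most 0.381% of the smaller library. Each kept cell was placed in 1 class: thymocyte-like where 2 or more of Dntt, Ptcra, Arpp21, Myl10 and Ly6d had a UMI, then by UMIs of Il1rl1 (which encodes ST2) and of Il23r, then neither. Il1rl1+ cells numbered 5089, 880, 394, 431 and 1738 in naive, ta-non-activated weeks 2 and 3, and ta-activated weeks 2 and 3. Il23r+ cells without Il1rl1 numbered 311 in naive and 27 in ta-activated week 2, against 0 to 11 elsewhere. The library of ta-non-activated week 3 stood apart: 847 of its 1601 cells (52.9%) were thymocyte-like, against 0 to 6 cells in any other library.

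The class names were compared with marker genes other than those of the rule. Thymocyte-like cells held 10 of 13 further thymocyte genes at 20 CPM (UMIs of a gene per 1000000 UMIs of the class) or more, led by Hes1 at 1149, Cd24a at 867, Tcf7 at 579 and Bcl11b at 455 CPM. Rag1, which cuts receptor genes during rearrangement, stood at 83.2 CPM there. Cd4 had 3 UMIs and Cd8a 22 UMIs in the 847 cells, so these genes of later thymocytes were near 0. Cd8b1, also on the list of 13, stood at 20 CPM or more. In the other classes with 50 or more cells 2 to 7 of the 13 did, with 7 in naive cells with neither Il1rl1 nor Il23r. The naive Il23r+ class held each of 12 type 17 lymphocyte genes at 20 CPM or more, among them Cxcr6 at 551 and Maf at 437 CPM. The Il1rl1+ classes held 9 to 11 of 11 ILC2 genes at that level in each library, and so did the cells with neither gene, so this list did not set those classes apart. Naive Il23r+ cells held 7 of the 11.

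In T cells the receptor is a pair of variable chains, alpha with beta or gamma with delta, whose constant ends anchor it in the membrane. The chains carry almost no signalling tail of their own, so the signal passes through CD3 delta, epsilon and gamma and through the zeta chain encoded by Cd247, which bear tyrosine motifs read by kinases such as Lck and Zap70. Innate lymphoid cells carry no assembled receptor at the surface, although transcripts from unrearranged receptor loci are known in them.

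The CD3 genes form a cluster on mouse chromosome 9 (GRCm38, GENCODE M21). Cd3g lies on the minus strand at chr9:44969572-44980431 and Cd3d on the plus strand at chr9:44981786-44987339, with starts 1355 bases apart. Cd3e lies at chr9:44998740-45009627 on the minus strand, its start 27841 bases from that of Cd3d. The 250 bases before the RefSeq start of each gene are shown because Cd3g and its neighbours differed in level in the cells described next. Sequences are from RefSeq (GRCm38.p6), each 5′ to 3′ on the gene's own strand, and 4 of the 10 genes had an entry. Capitals mark matches on either strand to 6-letter motifs of lymphocyte transcription factors. For GATA factors the letters searched were AGATAA and also AGATAG. For TCF-1 and LEF-1 they were CTTTGA and also CTTTGT, and for ETS factors they were CAGGAA and also CCGGAA. For RUNX factors they were TGTGGT and also TGCGGT.
Cd3g, chr9:44980432-44980681, minus strand: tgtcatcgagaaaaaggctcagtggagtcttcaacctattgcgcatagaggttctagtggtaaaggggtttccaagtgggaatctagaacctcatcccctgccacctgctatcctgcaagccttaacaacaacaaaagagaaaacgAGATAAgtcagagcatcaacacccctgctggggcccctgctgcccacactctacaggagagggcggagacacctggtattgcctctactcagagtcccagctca
Cd3d, chr9:44981536-44981785, plus strand: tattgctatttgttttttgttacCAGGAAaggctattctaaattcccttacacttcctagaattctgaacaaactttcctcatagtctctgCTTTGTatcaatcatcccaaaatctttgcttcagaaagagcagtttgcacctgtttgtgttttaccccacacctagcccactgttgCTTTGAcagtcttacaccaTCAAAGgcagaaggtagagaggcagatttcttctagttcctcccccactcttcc
Cd3e, chr9:45009612-45009861, minus strand: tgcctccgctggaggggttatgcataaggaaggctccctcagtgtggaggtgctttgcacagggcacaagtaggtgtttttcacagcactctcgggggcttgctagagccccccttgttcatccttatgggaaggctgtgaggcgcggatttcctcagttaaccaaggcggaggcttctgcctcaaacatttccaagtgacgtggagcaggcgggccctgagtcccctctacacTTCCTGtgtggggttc
The Cd3g window held AGATAA, which 9.97% of 32536 promoters of this length hold, and none of the other motifs. The Cd3d window held CTTTGA on each strand (13.9% of promoters), CTTTGT (16.5%) and CAGGAA (25.6%), and the Cd3e window held CAGGAA on its minus strand, read here as TTCCTG. These matches describe letters in a window and not binding.

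Cd3d and Cd3e, whose products pair with each other in the receptor complex, were low in Il1rl1+ cells and abundant in naive Il23r+ and in thymocyte-like cells. Values are CPM of the summed UMIs of a class, with exact Poisson 95% intervals that cover counting error only. A UMI counts 1 molecule at its 3′ end, so levels were not divided by gene length. In Il1rl1+ cells Cd3d stood at 3.51 CPM in naive (2.83 to 4.31), 1.51 and 5.82 in ta-non-activated weeks 2 and 3, and 5.51 and 2.14 in ta-activated weeks 2 and 3. Cd3e in those 5 sums stood at 8.63, 1.73, 3.33, 1.43 and 1.30 CPM. These levels depend on the class rule, which sets apart 78 naive cells with both Il1rl1 and Il23r, at 197 CPM of Cd3d (166 to 232) and 182 of Cd3e, and 9 thymocyte-like cells with Il1rl1 in ta-non-activated week 3. The 78 cells had a median of 8699.5 UMIs, against 4605 in naive Il1rl1+ and 5163 in naive Il23r+ cells. No doublet caller was run, so droplets with more than 1 cell were not set apart. With the 78 and the 9 cells counted as Il1rl1+, Cd3d stood at 8.69 CPM in naive and 56.8 in ta-non-activated week 3, and Cd3e at 13.3 and 27.2. By contrast, naive Il23r+ cells held Cd3d at 468 CPM (436 to 502) and Cd3e at 442, and thymocyte-like cells held them at 867 (845 to 889) and 433. Within naive, Cd3d was therefore 133-fold and Cd3e 51.2-fold higher in Il23r+ than in Il1rl1+ cells. Cells with neither gene were mixed: Cd3d stood at 112 CPM in naive and 156 in ta-non-activated week 3, but at 1.77 in ta-non-activated week 2 and at 10.9 and 2.65 in ta-activated weeks 2 and 3.

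Cd3g, which encodes the CD3 gamma chain that also pairs with CD3 epsilon, stood well above Cd3d and Cd3e in Il1rl1+ cells. In Il1rl1+ cells it stood at 209 CPM in naive (203 to 215), 37.9 and 261 in ta-non-activated weeks 2 and 3, and 145 and 103 in ta-activated weeks 2 and 3. The order was ta-non-activated week 3, naive, ta-activated week 2, ta-activated week 3 and ta-non-activated week 2, and no neighbours in it had overlapping counting intervals. For Cd3d in the same cells, the interval of ta-non-activated week 3, from 7 UMIs, overlapped that of ta-activated week 2 (4.37 to 6.84), as did those of ta-activated week 3 (1.65 to 2.72) and ta-non-activated week 2 (0.993 to 2.19). Thymocyte-like cells held Cd3g at 2291 CPM and naive Il23r+ cells at 831, so the fold over Il1rl1+ cells of the same library was 8.77 and 3.98, far below that of Cd3d. The 27 Il23r+ cells of ta-activated week 2 also held the 3 chains, at 407 CPM for Cd3d, 217 for Cd3e and 1980 for Cd3g.

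Cd247 lies apart from the cluster, at chr1:165788681-165877277 on the plus strand. In Il1rl1+ cells it stood at 26.5 CPM in naive and at 4.69, 5.82, 6.66 and 1.78 in ta-non-activated weeks 2 and 3 and ta-activated weeks 2 and 3. Naive Il23r+ cells held 232 CPM (210 to 256) and thymocyte-like cells 125 (117 to 134), the opposite order to Cd3d and Cd3g. The naive level carries a limit: genes with 20 kb or more of intron were higher in naive Il1rl1+ cells than in fresh tumour ones, by a median log2 ratio of -1.18 at week 2 and -0.91 at week 3 (3443 and 3282 genes). Cd247 has 83268 intron bases, and its log2 ratios were -2.27 and -2.01. The naive file header names another Cell Ranger version than the other 4, and the part of that in the naive values was not tested.

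**Figure D1:**
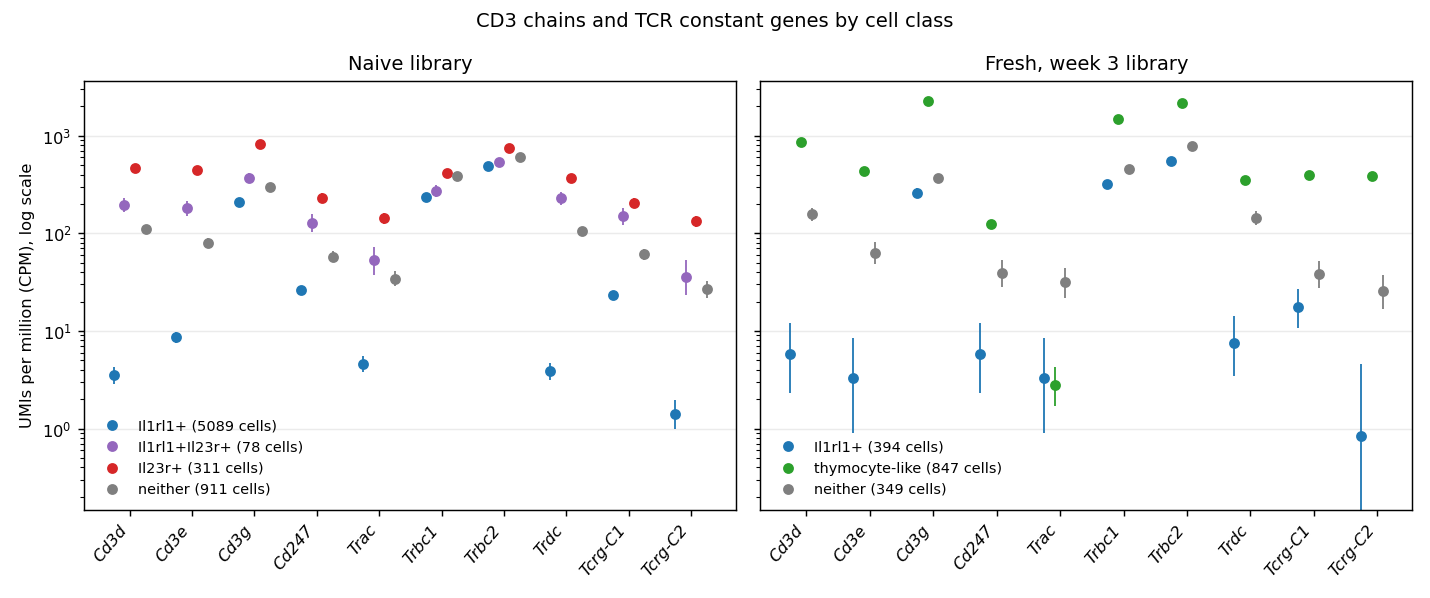
Level of each gene (CPM of summed UMIs, log axis) in classes of naive and ta-non-activated week 3, with exact Poisson 95% intervals as bars. Cd3d, Cd3e, Trdc and Tcrg-C2 lie between 0.832 and 8.63 CPM in the Il1rl1+ cells shown, whereas Cd3g, Trbc1 and Trbc2 lie between 209 and 549 CPM there.

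The alpha and beta constant genes separated in the same way as the CD3 chains. Trac (chr14:54220521-54224206, plus strand) stood at 4.62 CPM in naive Il1rl1+ cells and between 0.838 and 3.33 in the other Il1rl1+ sums. Trbc2, in contrast, was the highest of the 10 genes there, at 494 CPM in naive, 205 and 549 in ta-non-activated weeks 2 and 3, and 248 and 231 in ta-activated weeks 2 and 3. Trbc1 stood at 238, 41.3, 319, 108 and 57.1 CPM in those sums. Naive Il23r+ cells held Trac at 142 CPM (125 to 161), Trbc1 at 416 and Trbc2 at 741. Thymocyte-like cells held Trbc1 at 1491 and Trbc2 at 2138 CPM but Trac at 2.80 (1.71 to 4.32), from 20 UMIs in 847 cells. The Trac level of thymocyte-like cells was thus within the range of the Il1rl1+ sums, while the remaining cells without Il1rl1 or Il23r of the same library held 31.6 CPM.

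Trbc1 (chr6:41538218-41539881) and Trbc2 (chr6:41546730-41548352) are neighbours on the plus strand and nearly identical copies. Their first exons have 375 bases each with 1 difference, C260A, counted from 1 at the exon's 5′ end with the Trbc1 base first. The 60 bases around it are shown to mark that difference, with the differing base in capitals.
Trbc1, exon 1 bases 230 to 289: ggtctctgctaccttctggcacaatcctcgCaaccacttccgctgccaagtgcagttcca
Trbc2, exon 1 bases 230 to 289: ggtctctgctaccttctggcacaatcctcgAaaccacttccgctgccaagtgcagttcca
Of the 50-base words in the last 400 bases of the Trbc1 transcript, 48.7% occur in Trbc2. Of those of Trbc2, 11.7% occur in Trbc1, so the split between the pair is uncertain. Among naive Il1rl1+ cells with 5 or more Trbc UMIs, 77.3% of 1650 cells held UMIs of both genes, and 32.5% of all Trbc UMIs were Trbc1. Thymocyte-like cells held both in 85.7% of 784 such cells, with 41.1% Trbc1, and ta-non-activated week 2 Il1rl1+ cells had 16.7% Trbc1.

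Trdc, the delta constant gene (chr14:54142851-54148868, plus strand, 77670 bases from the start of Trac), stood at 3.89 CPM in naive Il1rl1+ cells, 0.782 and 7.49 in ta-non-activated weeks 2 and 3, and 0.816 and 0.810 in ta-activated weeks 2 and 3. Naive Il23r+ cells held 367 CPM (339 to 397) and thymocyte-like cells 354 (340 to 368), and these intervals overlapped. Delta transcripts thus reached like levels in both classes, while Trac differed between them.

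The gamma constant genes differed from each other. Tcrg-C1 (chr13:19214103-19217024, plus strand) kept 23.5 CPM in naive Il1rl1+ cells and 7.65 to 18.8 in the other Il1rl1+ sums, while Tcrg-C2 (chr13:19304649-19307551, minus strand) stood between 0.162 and 1.41 CPM there. Thymocyte-like cells held Tcrg-C1 at 396 and Tcrg-C2 at 385 CPM, a ratio of 1.03 (0.976 to 1.08). Naive Il23r+ cells held 206 and 133 CPM, a ratio of 1.55 (1.31 to 1.84), and naive Il1rl1+ cells had a ratio of 16.6 (11.9 to 23.8). The first exons of the pair are 97.3% identical, and 23.4% of the 50-base words at the Tcrg-C1 end occur in Tcrg-C2. Part of the reads thus cannot be told apart between the pair, and these ratios are uncertain. Of the remaining gamma constant genes, Tcrg-C4 had 1788 to 3792 UMIs per library and Tcrg-C3 0 to 13.

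**Figure D2:**
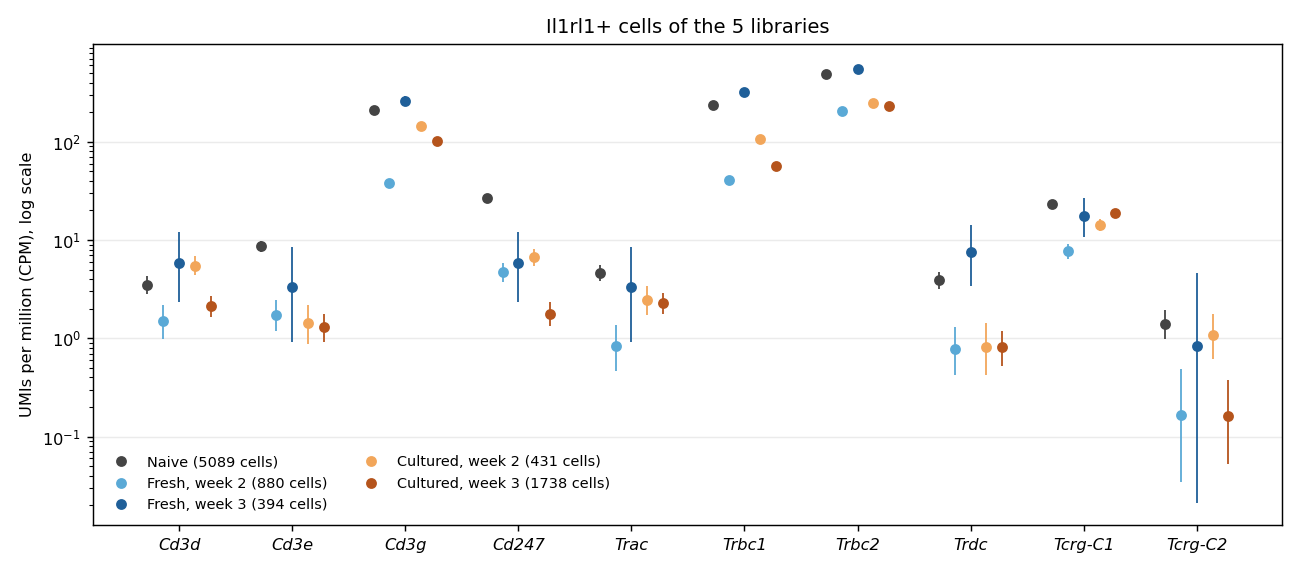
Level of each gene in the Il1rl1+ cells of the 5 libraries (CPM, log axis), with exact Poisson 95% intervals. Cd3g, Trbc1 and Trbc2 are lowest in ta-non-activated week 2, at 37.9, 41.3 and 205 CPM, and highest in ta-non-activated week 3, at 261, 319 and 549 CPM.

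Droplets also take up free RNA from broken cells, and its makeup in these libraries was not measured. The ratio of Cd3g to Cd3d UMIs was 59.5 (48.4 to 73.9) in naive Il1rl1+ cells against 1.78 (1.63 to 1.94) in naive Il23r+ cells. In ta-non-activated week 3 it was 44.9 in Il1rl1+ cells, from 7 Cd3d UMIs, against 2.64 (2.57 to 2.72) in thymocyte-like cells. If all Cd3d of naive Il1rl1+ cells were RNA with the makeup of Il23r+ cells, that RNA would carry 6.23 CPM of Cd3g, 2.98% of the level seen, and 1.12% of the Trbc2 level. For Trdc it would carry 70.8% and for Tcrg-C2 70.6% of the level seen. In ta-non-activated week 3 the same sum with thymocyte-like cells gives 5.89% for Cd3g, 2.62% for Trbc2, 31.7% for Trdc, 87.5% for Cd3e and 311% for Tcrg-C2. The last sets 2.59 CPM carried against 0.832 CPM seen, from 1 Tcrg-C2 UMI with an interval of 0.0211 to 4.63 CPM. That interval holds the carried level, and the scaling itself rests on 7 Cd3d UMIs. Whether the assumed makeup holds for each gene was therefore not tested. Free RNA can also come from Il1rl1+ cells. In naive they held 5473 of the 8285 Cd3g UMIs of all kept cells but 92 of the 1452 Cd3d UMIs. Of the UMIs of all genes, 32395387 in kept naive cells, they held 26194777. RNA of another makeup would give other shares, and the part of free RNA in these levels was not tested.

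Naive cells with 3 or more of the endothelial genes Cldn5, Cdh5, Ramp2 and Egfl7, a rule chosen after their values were seen, were also counted. Without an Il1rl1 UMI there were 18 such cells, at a median of 3118 UMIs, and they held 1 UMI of Trbc2, 1 of Trbc1 and 4 of Cd3g, the last all in 1 cell. Trbc2 stood at 19.5 CPM in them (0.494 to 109), below its 494 CPM in Il1rl1+ cells. Another 20 such cells with Il1rl1, at a median of 5783.5 UMIs, held Trbc2 at 442 CPM and Gata3 at 545 CPM. The split by Il1rl1 can place droplets with RNA of Il1rl1+ cells among the 20, and so can itself lower Trbc2 in the 18. The part of free RNA was not tested with these cells.

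Which chains appeared in the same cell was counted after each cell was thinned to 2000 UMIs, with shallower cells left out. Of 4958 naive Il1rl1+ cells (of 5089), 69.4% had Trbc1 or Trbc2, and 51.6% had one of them with no Cd3d, Cd3e or Cd3g. Cd3g without Cd3d and Cd3e was seen in 22.5% (21.3 to 23.7, exact Clopper-Pearson), and without thinning in 30.1%. Cd3d, Cd3e and Cd3g came together in 3 of the 4958 cells (0.0605%), and in 0.334% without thinning. Il1rl1+ cells of ta-non-activated week 3 gave like values, 74.8% with Trbc1 or Trbc2 and 23.2% with Cd3g alone among 357 cells (of 394). None of these cells had the 3 chains, with an approximate limit of 0.840%, taken as 3 cells of 357 and not as a Clopper-Pearson bound. The other libraries were lower: Trbc1 or Trbc2 was seen in 36.4%, 42.9% and 33.7% of Il1rl1+ cells of ta-non-activated week 2 and ta-activated weeks 2 and 3, and Cd3g without Cd3d and Cd3e in 7.39%, 18.4% and 10.6%.

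In Il23r+ and thymocyte-like cells the chains came together more often. The 3 CD3 chains appeared together in 32.0% of 300 naive Il23r+ cells (26.8 to 37.6) and in 40.3% of 839 thymocyte-like cells (36.9 to 43.7). Without thinning these shares were 69.1% and 82.6%, at median depths of 5163 and 6341 UMIs. Cells with neither gene had the 3 chains in 5.54% in naive and 7.24% in ta-non-activated week 3, and in 0.202% to 0.635% in the other libraries. An alpha-beta pair, Trac with Trbc1 or Trbc2, was seen in 16.0% of the naive Il23r+ cells and 0.358% of the thymocyte-like cells (0.0738 to 1.04). A gamma-delta pair, Trdc with Tcrg-C1 or Tcrg-C2, was seen in 21.7% (17.1 to 26.8) and 29.0% (25.9 to 32.2). Trdc also came with Trbc1 or Trbc2 in 30.3% of the Il23r+ cells and 39.9% of the thymocyte-like cells. Trac and Trdc seldom shared a naive Il23r+ cell: of 90 cells with Trac and 161 with Trdc before thinning, 20 had both. The median number of the 10 genes found in a cell before thinning was 8 in thymocyte-like, 7 in naive Il23r+ and 2 in naive Il1rl1+ cells.

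**Figure D3:**
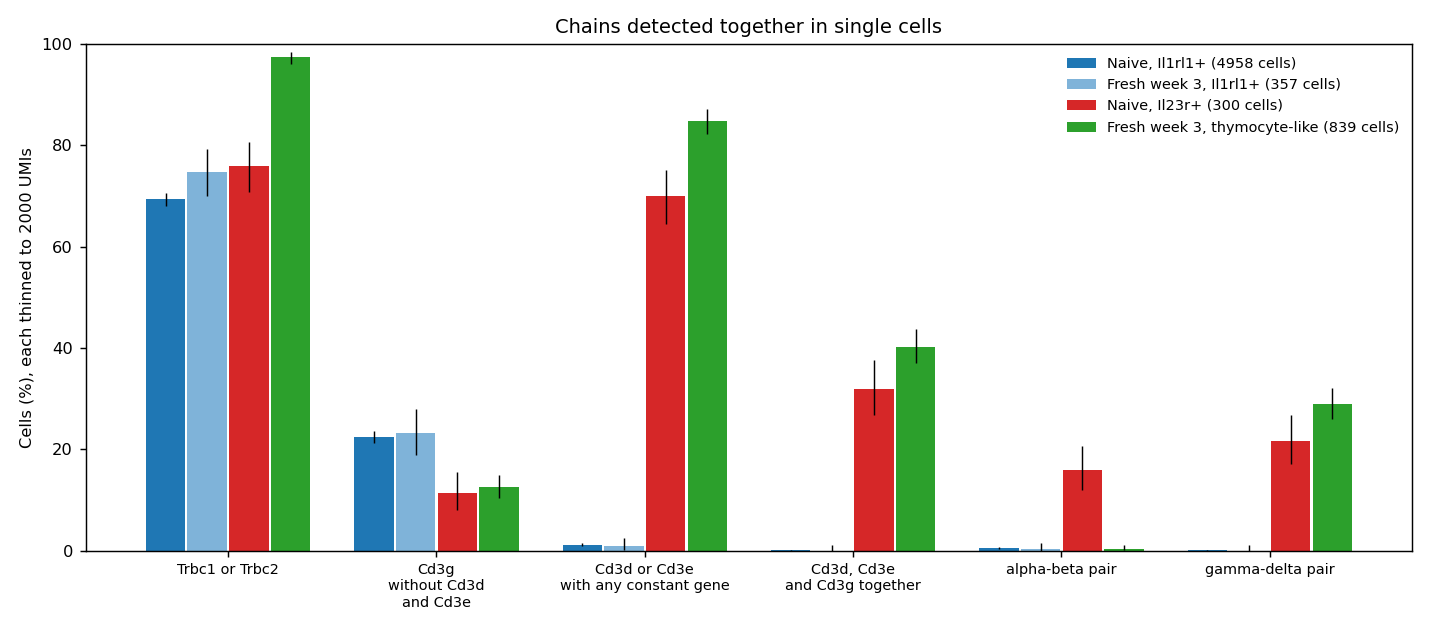
Percent of cells with each combination of chains after thinning to 2000 UMIs, by class, with exact binomial 95% intervals. Trbc1 or Trbc2 is common in Il1rl1+ cells (69.4% in naive), while Cd3d, Cd3e and Cd3g together reach 32.0% in naive Il23r+ and 40.3% in thymocyte-like cells.

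A full set was counted without thinning as Cd3d, Cd3e and Cd3g with at least 1 receptor pair. Naive had 277 such cells, of which 103 had the alpha-beta pair alone, 158 the gamma-delta pair alone and 16 both. By class, 168 of the 277 were Il23r+, 28 had Il1rl1 and Il23r, 8 had Il1rl1 alone and 73 had neither. The 28 had a median of 10452 UMIs, against 5399 in the 168, and doublets were not called. In ta-non-activated week 3 there were 461, of which 433 had the gamma-delta pair alone, and 440 of the 461 were thymocyte-like. The other libraries had 8, 36 and 6 full sets in ta-non-activated week 2 and ta-activated weeks 2 and 3. In ta-activated week 2, 30 of the 36 had the alpha-beta pair alone.

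The naive cells with alpha-beta sets and those with gamma-delta sets shared Il23r, at 565 and 532 CPM, and Il17a, at 117 and 159. The genes named in this paragraph were chosen after their values were seen, and the values come from 1 library with no test. Cd163l1, a scavenger receptor of gamma-delta T cells, stood at 355 CPM (317 to 396) in the gamma-delta cells against 11.7 (5.05 to 23.1) in the alpha-beta cells. Sox13, a transcription factor of gamma-delta T cells, stood at 87.6 against 13.2 CPM, and Il17f at 185 against 35.1. Cd28, the co-stimulatory receptor, was higher in the alpha-beta cells, at 277 (239 to 319) against 114 (93.2 to 138) CPM, as was Icos, at 1104 against 603. Cd247 went the other way, at 98.1 CPM in the alpha-beta and 314 in the gamma-delta cells. The gamma-delta sets of ta-non-activated week 3 differed from both, with 2 UMIs of Il23r in 433 cells, Rag1 at 70.2, Hes1 at 1072 and the granzyme gene Gzma at 911, whereas naive gamma-delta cells had 0 Rag1 UMIs.

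**Figure D4:**
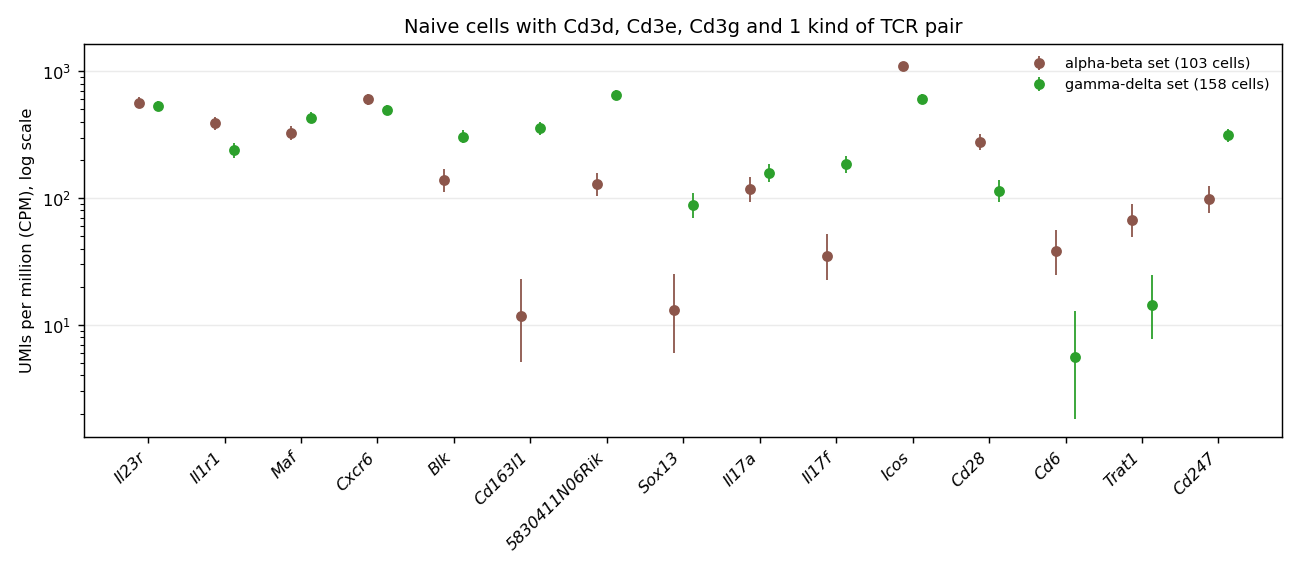
Levels of marker genes (CPM, log axis) in naive cells with a full alpha-beta or gamma-delta set, with exact Poisson 95% intervals. Il23r lies at 565 CPM in the alpha-beta set and at 532 CPM in the gamma-delta set.

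Variable segments, which are joined to the constant regions in a rearranged receptor, were counted for the 175 variable genes in the table. The libraries read 3′ ends, far from these segments, so a missing one says little. In thymocyte-like cells a gamma segment was seen in 472 of the 771 cells with Tcrg-C1 or Tcrg-C2 (61.2%), and in 22 of the 76 without (28.9%). Trgv2 led with 1183 UMIs in 458 cells, before Tcrg-V4 with 109 UMIs in 95 cells. A beta segment was seen in 159 of the 840 thymocyte-like cells with Trbc1 or Trbc2 (18.9%), and in 0 of the 7 without. Delta segments, counted by symbols starting with Trdv, were seen in 52 of 589 thymocyte-like cells with Trdc (8.83%) and 22 of 258 without (8.53%). Segments named for both chains, such as Trav6-7-dv9, were counted as alpha and not as delta, so neither family's share is complete or pure. An alpha segment was seen in 3 of 17 thymocyte-like cells with Trac (17.6%) and in 82 of 830 without (9.88%). Naive Il23r+ cells had a gamma segment in 97 of 215 cells with Tcrg-C1 or Tcrg-C2 (45.1%), and in 19 of 96 without (19.8%). They had a beta segment in 14 of 276 cells with Trbc1 or Trbc2 (5.07%), and in 0 of 35 without. Naive Il1rl1+ cells, which had Trbc1 or Trbc2 in 4395 cells, showed a beta segment in 6 of them (0.137%, 0.0501 to 0.297). The share was 0.432% (3 of 694) in the naive Il1rl1+ cells without Trbc1 and Trbc2. Naive Il1rl1+ cells did hold a delta segment: Trdv4 had 2031 UMIs in 1406 cells (77.5 CPM), and delta segments were seen in 1404 cells without any Trdc UMI. Trdv4 led in the Il1rl1+ cells of every library, from 2.62 CPM in ta-non-activated week 2 to 243 CPM in ta-non-activated week 3.

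Within ta-non-activated week 3 the chains were followed across the number of thymocyte rule genes found in a cell. Cells with 0 to 5 of them numbered 715, 39, 12, 57, 397 and 381. The values just outside and just inside the rule, at 1 and 2 genes, were 344 and 569 CPM for Cd3d, 403 and 990 for Cd3g, and 432 and 864 for Trdc. Cd3d stood at 65.2 CPM in cells with 0 genes and at 1160 in cells with all 5, and Cd3g at 316 and 2695. Trac went the other way, at 30.2 CPM with 0 genes, 3.11 with 4 and 1.38 with 5. Trdc was not ordered along the count, with 864 CPM at 2 genes, 244 at 3 and 453 at 4. Median depth was 2792 UMIs at 0 genes and 5801 to 9868 at 3 to 5, and a deeper cell is more likely to show a rule gene. Among the thymocyte-like cells, 9 also had Il1rl1, at a median of 11209 UMIs, and they held Cd3d at 572 CPM, Cd3g at 1034 and Trbc2 at 3177.

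**Figure D5:**
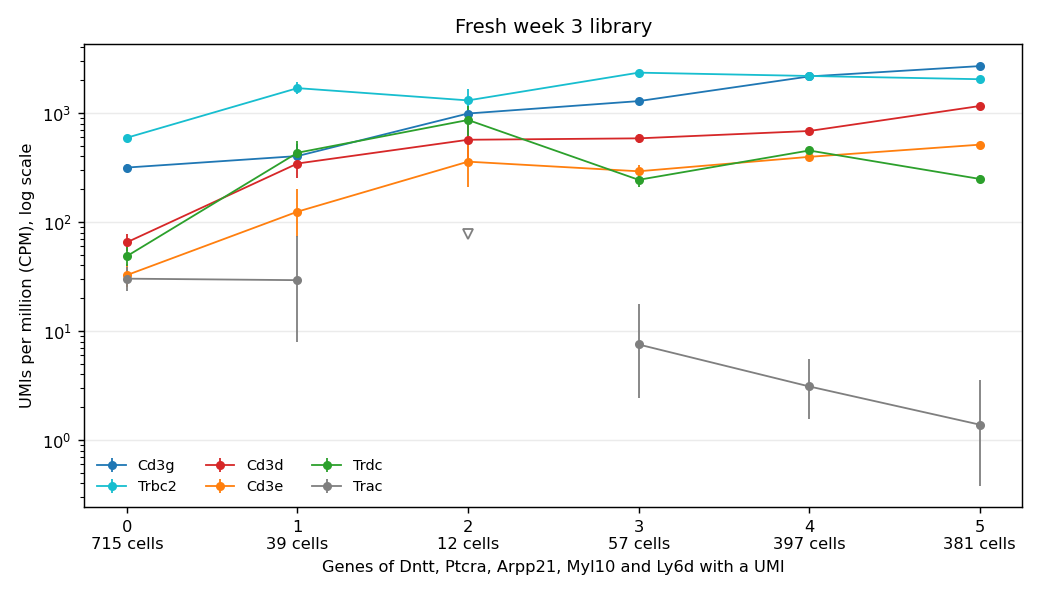
Level of receptor genes (CPM, log axis) in cells of ta-non-activated week 3 by number of thymocyte rule genes found, 0 to 5, with exact Poisson 95% intervals; the open triangle is the upper limit for Trac, which had 0 UMIs at 2 genes. Cd3g lies at 316 CPM with 0 genes and 2695 with 5, while Trac lies at 30.2 and 1.38.

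Fresh Il1rl1+ cells of tumour-bearing mice were set against naive ones for each week, with 1 library on each side and no test. At week 2 each of the 10 genes was lower than in naive, with ratios of 0.429 for Cd3d (0.269 to 0.665), 0.181 for Cd3g (0.167 to 0.197), 0.173 for Trbc1 and 0.415 for Trbc2. Of the 6530 genes at 20 CPM or more on either side, 34.5% were at least 2-fold lower on the log2(CPM + 1) scale, 16% at least 5-fold lower and 24.8% at least 2-fold higher. Of the 10 genes, Cd3g, Cd247, Trbc1, Trbc2 and Tcrg-C1 passed that minimum, and each of these 5 was at least 2-fold lower, Cd3g and Trbc1 at least 5-fold. Cd247 and Tcrg-C1 passed only through naive, at 26.5 and 23.5 CPM against 4.69 and 7.65 at week 2. A gene that passes in this way can only come out lower, so these calls add no support. At week 3 Cd247 was lower than naive, with a ratio of 0.219 (0.0879 to 0.455), and Cd3e, Trac, Tcrg-C1 and Tcrg-C2 had ratios of 0.386 to 0.744 with intervals that held 1, as did those of Cd3d and Trdc, with ratios of 1.66 and 1.92. Cd3g, Trbc1 and Trbc2 were above naive at week 3, at 261, 319 and 549 CPM against 209, 238 and 494, by less than 2-fold, where 3.49% of genes were at least 2-fold higher and 27.9% at least 2-fold lower. The genes with 5 to 20 kb of intron, to which Cd3g with 7591 intron bases belongs, had median log2 ratios to naive of 0.64 at week 2 and 0.19 at week 3. On the log2(CPM + 1) scale Cd3g had -2.43 and 0.32.

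Culture was described first within each week in Il1rl1+ cells, which gives 1 library against 1. That class held 48.3% and 24.6% of fresh cells at weeks 2 and 3, at medians of 16994.5 and 2934 UMIs. After culture it held 14.9% and 45.5%, at medians of 23293 and 12599.5 UMIs, so the compared sums differ in share and depth. At week 2 Cd3g stood at 145 CPM after culture against 37.9 fresh, a ratio of 3.81 (3.50 to 4.16), and Trbc1 at 108 against 41.3, a ratio of 2.61 (2.39 to 2.85). At week 3 the ratios lay below 1, at 0.393 for Cd3g (0.350 to 0.443), 0.179 for Trbc1 (0.160 to 0.200) and 0.421 for Trbc2 (0.389 to 0.457). Of all genes with enough counts, 15.5% were at least 2-fold higher and 13.4% at least 2-fold lower at week 2, and 23.8% and 10.7% at week 3. In all, 5 of the 10 genes lay above 1 at week 2 and below 1 at week 3 with counting intervals on the same sides, as did 6.09% of the 10940 genes with a UMI in each of the 4 sums. Among the 6449 genes at 20 CPM or more in at least 1 of those sums the share was 8.5%, and Cd3g, Trbc1 and Trbc2, the members that reached this level, were among them. The cultured levels of both weeks lay between the fresh ones for Cd3g and Trbc1. The median of all genes shifted by 0.00 log2 at week 2 and 0.32 at week 3. In cells with neither Il1rl1 nor Il23r, Cd3g stood at 42.0 and 369 CPM fresh at weeks 2 and 3, and at 236 and 80.0 after culture.

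Across both weeks, ta-activated was compared with ta-non-activated on summed counts with edgeR's quasi-likelihood test and Benjamini-Hochberg adjustment. Over all kept cells, Cd3d stood at 2.02 and 639 CPM (scaled by edgeR's TMM factors) in ta-non-activated weeks 2 and 3 and at 11.7 and 2.31 in ta-activated weeks 2 and 3. Cd3g stood at 46.2 and 1712 against 220 and 86.8, and Trdc at 1.27 and 269 against 2.00 and 1.73. The cultured values lay between the fresh ones for each of these, and the high value was the library in which thymocyte-like cells made up 52.9%. In that library thymocyte-like cells held 6191 of the 6376 Cd3d UMIs, 16361 of the 17085 Cd3g UMIs and 2527 of the 2689 Trdc UMIs. From the sums alone, fewer cells of a type and less RNA per cell cannot be told apart.

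None of the 10 genes passed an adjusted p of 0.05, and neither did any of the 12643 genes tested (0%), where 2120 genes (16.8%) had an unadjusted p under 0.05 and none of the 10 did. The log2 fold change was -5.52 for Cd3d (SE 2.57, edgeR adjusted p = 0.355), -5.75 for Cd3e (SE 2.31, adjusted p = 0.309), -2.52 for Cd3g (SE 1.61, adjusted p = 0.462) and -6.18 for Trdc (SE 2.37, adjusted p = 0.299). DESeq2 called 1041 genes (8.23%), and among the 10 it called Cd3d, Cd3e, Cd247 and Trdc as lower after culture. The fold changes of the 10 genes rested on single libraries. Without ta-non-activated week 2 they were all negative, such as -6.49 for Cd3d and -3.45 for Cd3g. Without ta-non-activated week 3, 9 of the 10 turned positive, such as 1.77 for Cd3d and 1.72 for Cd3g.

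With thymocyte-like cells left out, edgeR called 0 of 12610 genes (1436, 11.4%, with an unadjusted p under 0.05) and none of the 10, and DESeq2 called 471 (3.74%), among them Trdc. The log2 fold change of Cd3d was then -2.63 (SE 1.71, edgeR adjusted p = 0.602) and that of Cd3g -0.32 (SE 1.01, adjusted p = 0.924). In Il1rl1+ cells alone edgeR called 0 of 11534 genes (1303, 11.3%, with an unadjusted p under 0.05) and DESeq2 353 (3.06%), with none of the 10 called by either. Cd3g had a log2 fold change of -0.42 there (SE 0.91, edgeR adjusted p = 0.874) and Trbc2 -0.82 (SE 0.59, adjusted p = 0.616). With spreads of this size between the 2 weeks, a difference after culture was not detectable, which does not show that the levels were alike.

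Kinases and adaptors that read the chains were detected in each of the classes. Of 26 genes of T cell receptor signalling, 16 stood at 20 CPM or more in naive Il1rl1+ cells, 10 to 13 in the other Il1rl1+ sums, 19 in naive Il23r+ cells and 18 in thymocyte-like cells. Lck, the kinase that first phosphorylates the CD3 chains, stood at 31.5 CPM in naive Il1rl1+ cells, 65.8 in naive Il23r+ cells and 444 in thymocyte-like cells, where Lat, the membrane adaptor, reached 556. Over the 13 sums of library and class with 50 or more cells, Lck ran from 2.18 to 444 CPM. The limit on naive values given for Cd247 holds for the naive values here as well. Fcer1g, a chain that can stand in for zeta, stood at 149 CPM in naive Il23r+ cells against 5.57 in naive Il1rl1+ cells. Of the 26 genes, 23 were tested for culture over all kept cells, with 0 called by edgeR and 1 higher and 4 lower by DESeq2, which called 8.23% of all genes. With thymocyte-like cells left out, neither tool called any of the 22 tested. Over all kept cells their median log2 fold change was -0.17, beside -0.02 over all genes tested.

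Genes with the most similar pattern were sought over the 13 sums of library and class with 50 or more cells, by Pearson's r of log2(CPM + 1) among 8125 genes, as a description only, since the sums share libraries and depth. Nearest to Cd3d were Trgv2 (r = 0.977), Dhrs3 and Rasgrp2, and nearest to Cd3e were Ehd3 (r = 0.977), Rasgrp2 and Tcf7. Cd3g was nearest to Crip1 (r = 0.968), Frat2 and Txndc16. Cd247 was nearest to Paip2b (r = 0.959), Maml3 and Ipcef1, and Trac to Lingo4 (r = 0.982), Sdc1 and Mmd. Trbc1 was nearest to Cd1d1 (r = 0.987), Mgst2 and Lck, and Trbc2 to Dnajb1 (r = 0.983), Lck and Mgst2. Trdc was nearest to Rasgrp2 (r = 0.981), Tcf7 and Dhrs3, Tcrg-C1 to Ehd3 (r = 0.927), Inafm2 and Ezr, and Tcrg-C2 to Trgv2 (r = 0.983), Ezr and Ehd3. Among the chains, Cd3d correlated with Cd3e at 0.9747 and with Cd3g at 0.890.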

How the data were processed

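The deposited files are UMI counts per gene and cell barcode, raw and not normalized, which the authors made with Cell Ranger (10x Genomics 3′ chemistry). The submitters' processing notes name Cell Ranger 3.0.2, Seurat 3 and GRCm38, and the file headers give Cell Ranger 6.0.0 for naive and 3.0.2 for the other 4 libraries. From these counts, barcodes with 200 or more genes and under 5% mitochondrial counts were kept, classes were assigned by the stated rules, and UMIs were summed per library and class. No doublet caller was run, and an alternative left out cells above the 95th percentile of UMIs.

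Intervals are exact Poisson or Clopper-Pearson at 95% and cover counting error only. Nothing in the labels ties cells to mice, so p-values measure only the spread between the libraries of 2 weeks. Culture was tested with edgeR 4.0.16 (filterByExpr, TMM, quasi-likelihood) and, as an alternative, DESeq2 1.42.0, in R 4.3.3. Only the edgeR test, over all kept cells, was tried on simulated data. The genes and lists were chosen with earlier results of these data known. Named were the 10 genes, the class genes and up to 5 genes per list by level. The leading variable segments and the 3 nearest genes to each of the 10 were also named. Genes named outside this rule are Rag1, Cd4, Cd8a, Cd8b1, Lck, Lat, Fcer1g and those of the full sets. Gene models are GENCODE M21 (27639 of 27726 IDs matched).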

Additional observations from a re-analysis of the deposited data

Results flagged for a closer look

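Within Il1rl1+ cells, 5 genes had a ratio of cultured to fresh above 1 at week 2 and below 1 at week 3, and counting intervals on the same sides, as did 6.09% of the 10940 genes with a UMI in each of the 4 sums. The ratios at weeks 2 and 3 were 3.65 and 0.367 for Cd3d, 3.81 and 0.393 for Cd3g, and 1.42 and 0.306 for Cd247. They were 2.61 and 0.179 for Trbc1 and 1.21 and 0.421 for Trbc2. Each ratio compares 1 library with 1, and the difference between the weeks was not tested. The fresh week 3 values of Cd3d and Cd247 rest on 7 UMIs each.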

How the results depend on the processing

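In the comparison of cultured with fresh cells, edgeR's count of 0 genes was kept over all kept cells, without thymocyte-like cells and in Il1rl1+ cells with the mitochondrial limit at 10%, with all deposited barcodes and with all 5 libraries fitted together. DESeq2 called 1041 (8.23%), 471 (3.74%) and 353 genes (3.06%), and 4, 1 and 0 of the 10. With every gene of 1 or more counts tested, edgeR called 42 without thymocyte-like cells and 319 in Il1rl1+ cells. The week numbers do not come from a stated batch, and deviations of the same week correlated at -0.06, -0.01 and 0.15. With week as a replicate block, edgeR called 168 of 12610 genes without thymocyte-like cells and 87 of 11534 in Il1rl1+ cells. None of the 10 was among them, and the log2 fold change of Cd3g became 0.14 and 0.11.

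With each library left out in turn, where a lone library is assumed to vary like the other group, edgeR called 0 to 1646 genes over all kept cells, 193 to 312 without thymocyte-like cells and 0 to 73 in Il1rl1+ cells, and 0 to 9, 0 to 1 and 0 of the 10. Log2 fold changes that crossed 0 ran, over all kept cells, from -7.10 to 1.77 for Cd3d, -6.72 to 0.52 for Cd3e, -3.45 to 1.72 for Cd3g, -1.34 to 1.27 for Trac, -3.86 to 0.58 for Trbc1, -2.60 to 0.26 for Trbc2, -7.15 to 0.54 for Trdc, -3.31 to 0.82 for Tcrg-C1 and -8.67 to 1.40 for Tcrg-C2. Without thymocyte-like cells they ran from -4.32 to 1.77 for Cd3d, -3.77 to 0.50 for Cd3e, -1.20 to 1.72 for Cd3g, -3.21 to 1.26 for Trac, -2.37 to 0.58 for Trbc1, -1.33 to 0.26 for Trbc2, -5.52 to 0.35 for Trdc, -0.41 to 0.82 for Tcrg-C1 and -4.85 to 1.37 for Tcrg-C2. In Il1rl1+ cells they ran from -0.86 to 1.12 for Cd3d, -1.21 to 1.49 for Cd3g, -1.81 to 0.20 for Cd247, -0.64 to 1.26 for Trac, -2.08 to 0.79 for Trbc1, -1.33 to 0.000883 for Trbc2, -0.23 to 0.87 for Tcrg-C1 and -0.58 to 1.79 for Tcrg-C2. Trdc without thymocyte-like cells stood at -5.52 without ta-non-activated week 2 and at -4.96 without ta-activated week 2. The cause of these changes was not tested.

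Of the 180 levels by library and class, 1 to 5 moved by over 1.5 times under each alternative, and 10 of 70 did where classes could overlap. With overlapping classes, naive Il23r+ cells gave Cd3d 387, Trac 116 and Trdc 326 CPM, and naive Il1rl1+ cells gave Cd3d 8.69. The widest moves were in Il1rl1+ cells of ta-non-activated week 3, where adding the 9 thymocyte-like cells with Il1rl1 took Cd3d from 5.82 to 56.8, Cd3e from 3.33 to 27.2, Trdc from 7.49 to 33.3 and Tcrg-C2 from 0.832 to 12.9 CPM, and where requiring 2 UMIs took Tcrg-C2 from 1 UMI to 0. With 2 UMIs of Il1rl1 or Il23r required, naive Il1rl1+ cells gave Cd3g 197 and Trbc2 483. Without cells above the 95th percentile of UMIs they gave 219 and 504, and thymocyte-like cells gave Cd3d 988, Trdc 390 and the 3 CD3 chains together in 45.5%.

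Shares of cells follow depth. Without thinning, thymocyte-like cells had the 3 CD3 chains in 82.6%, a gamma-delta pair in 63.6% and an alpha-beta pair in 2.01%, naive Il23r+ cells the 3 chains in 69.1%, and naive Il1rl1+ cells Cd3g alone in 30.1% and the 3 chains in 0.334%. Thinned to 1000 UMIs, the 3 chains were in 19.98% and the gamma-delta pair in 13.9% of thymocyte-like cells, the 3 chains in 15.2% of naive Il23r+ cells and Cd3g alone in 15.2% of naive Il1rl1+ cells.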
